A study of Homo sapiens with 12 samples.

Results

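The DNAJ family, the J-domain co-chaperones of HSP70, was followed in 12 libraries labelled as 2 human liver tumour lines with and without geniposide. Members were the protein-coding genes of the deposited table whose symbol is DNAJA, DNAJB or DNAJC followed by a number and, in some, a letter. The rule used names only and found 44 genes of 58735 in the table (19951 of them protein-coding): 4 DNAJA, 12 DNAJB and 28 DNAJC genes. Another 26 genes with a DNAJ name were left outside it, mostly pseudogenes and antisense transcripts. The 4 groups were untreated Huh7, Huh7 with geniposide, untreated HepG2 and HepG2 with geniposide, each with 3 samples labelled 48 h, and the labels give no dose. Huh7 comes from a hepatocellular carcinoma, HepG2 from a hepatoblastoma, and geniposide is an iridoid glycoside known from gardenia fruit. By its title the study asked about tumour growth and ferroptosis under geniposide.

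HSP70 chaperones bind exposed stretches of unfolded protein and let go of them in a cycle driven by ATP. A J-domain protein brings the client and, through a conserved histidine, proline and aspartate motif, starts ATP hydrolysis, after which a nucleotide exchange factor resets HSP70. Class A members carry the J domain, a glycine and phenylalanine rich linker and zinc-binding repeats, class B members lack the repeats, and class C members share little but the J domain and place HSP70 in particular compartments. DNAJB1 is a classical heat shock gene under the transcription factor HSF1, whereas DNAJB9, DNAJB11, DNAJC3 and DNAJC10 belong to the unfolded protein response of the endoplasmic reticulum.

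Levels are the deposited FPKM, a fragment count divided by gene length and by a size factor of each library. Changes are limma differences in log2(FPKM + 1) ± SE with Benjamini-Hochberg adjusted p. A member counted as risen or fallen when its adjusted p over the 15518 genes tested was under 0.05. Of the 44 members, 38 reached 1 FPKM in at least 3 of the 12 samples and were tested that way. The libraries held 15056655 to 17211659 fragments on genes, and 27530 to 36537 of these fell on the family. The size factor in the deposited values was not the sum of these fragments. It was 1.09 to 1.10 times that sum in untreated and 1.15 to 1.17 times in treated Huh7-labelled libraries. In HepG2-labelled libraries it was 0.895 to 0.914 times the sum, so FPKM comparisons between groups carry this difference in scaling. The third treated Huh7-labelled library stood apart from its group, with a chi-square per degree of freedom of 43.4 and 44.9 against the other treated libraries, while the other pairs of libraries within a group reached at most 6.58. Counts, and members whose call changes, are also given without it. None of 10 hepatocyte markers reached a group mean of 1 FPKM (APOB was 0 in every library), nor did any of 6 leukocyte or 5 endothelial markers. Of 6 fibroblast markers 5 did, with COL1A2 at 0, and their sum was 4.87 to 7.44 FPKM in Huh7-labelled libraries, 71.9 to 73.4 in untreated and 104 to 107 in treated HepG2-labelled libraries. KRT7, KRT19 and SOX9 of 5 cholangiocyte markers also did, and that list's sum was 275 to 288 FPKM in untreated and 72.4 to 75.9 in treated HepG2-labelled libraries. The 10 hepatocyte markers together summed to 0.219 to 0.549 FPKM in a library. These markers do not bear out the liver tumour lines named in the labels. The identity of the cells was not tested, so Huh7 and HepG2 name labelled groups only in what follows. The part of these marker shifts in the results was not tested. Nothing says that the 3 samples of a group were separate cultures, so the p-values reflect how far these samples scatter, and that scatter may be technical.

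The promoters of the family were read from RefSeq windows on GRCh38.p14, which run from 250 bases before to 50 after a start and exist for 40 of the 44 members in 52 windows. Both strands were searched for the HSF1 element in a strict form of 3 alternating units, GAANNTTCNNGAA. It was present in 0.490% of all 35116 windows and in 2 of the 52 family windows, those of DNAJA1 and DNAJB6. These elements are shown because DNAJA1 had the largest fall of the family in Huh7-labelled cells, though not in HepG2, with the 3 units in capitals:
DNAJA1 element, chr9:33025276-33025288, plus strand: GAActTTCcaGAA
DNAJB6 element, chr7:157336873-157336885, plus strand: GAAccTTCgcGAA
Counted from the start, the element of DNAJA1 covers bases 4 to 16 and that of DNAJB6 bases -131 to -119. A shorter form with 2 facing units, GAANNTTC, was added after the sequences had been seen, and the strict form holds it by construction. It was present in 6.77% of all windows and in 7 of the 52 family windows. These belong to 6 members, DNAJA1, DNAJA4, DNAJB1, DNAJB6, DNAJB7 and DNAJC6. DNAJB1 has 3 RefSeq starts, and the window with most such pairs is shown beside that of DNAJB2, which rose in both lines and held none of the motifs searched. Both stretches stop short of any annotated exon, and capitals mark the facing pairs and a CCAAT box, read on the opposite strand as ATTGG:
DNAJB1, chr19:14518421-14518647, minus strand: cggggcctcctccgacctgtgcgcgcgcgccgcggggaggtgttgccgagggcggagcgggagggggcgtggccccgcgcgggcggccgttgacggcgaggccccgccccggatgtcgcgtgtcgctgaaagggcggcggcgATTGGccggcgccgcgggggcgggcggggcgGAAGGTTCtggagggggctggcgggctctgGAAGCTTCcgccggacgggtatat
DNAJB2, chr2:219279116-219279266, plus strand: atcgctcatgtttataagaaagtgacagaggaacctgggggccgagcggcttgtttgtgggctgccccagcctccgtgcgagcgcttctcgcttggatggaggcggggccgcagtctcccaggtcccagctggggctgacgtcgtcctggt
The CCAAT box was in 34.6% of all windows and in 22 of the 52 family windows, which belong to 17 members. The ATF4 and CEBP element TGATGNAA was in 3.62% of windows and in 1 of the 52 family windows, of DNAJA4. The ER stress response element, CCAAT and CCACG held 9 bases apart, was in 0.0769% of windows and in 0 members. A match describes the letters of a window and says nothing of binding.

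With geniposide the family did not move as a block. In Huh7-labelled cells 7 of the 38 tested members rose and 10 fell, 44.7% of them, beside 34.5% of all genes tested (16.4% up, 18.1% down). Without the third treated library 8 rose and 16 fell, beside 22.6% and 23.5% of all genes. In HepG2-labelled cells 7 rose and 12 fell, 50% of the members, beside 42.5% of all genes (21.0% up, 21.5% down), and 7 rose and 16 fell without that Huh7-labelled library, whose wide scatter enters the shared spread (26.5% and 27.3% of all genes). The median log2 difference over the tested members was -0.06 in Huh7 and -0.12 in HepG2, beside 0 and 0.0024 over all genes tested. Scaling each library to TPM moved the median of all genes by 0.08 and 0.07, and the members then gave 8 up and 9 down in Huh7 (21.0% and 13.1% of all genes) and 7 up and 9 down in HepG2 (24.1% and 17.4%). In both lines 6 members fell: DNAJA1, DNAJB1, DNAJC2, DNAJC7, DNAJC8 and DNAJC11, beside 9.25% of all genes. DNAJB2, DNAJB9, DNAJC1 and DNAJC4 rose in both, beside 6.23%, and DNAJC6 and DNAJC25 moved in opposite directions, beside 2.89%. The 3 treated values lay entirely to 1 side of the 3 untreated values in 16 of the 17 members called in Huh7 and in all 19 called in HepG2, as they did in 96.8% and 98.6% of all genes called. Of the 17 and 19 calls, 11 and 13 were kept under each alternative that tested the member and without each library. Among the kept, DNAJB5 and DNAJC18 in Huh7 and DNAJC15 in HepG2 were not tested under a filter of 5 FPKM.

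**Figure D1:**
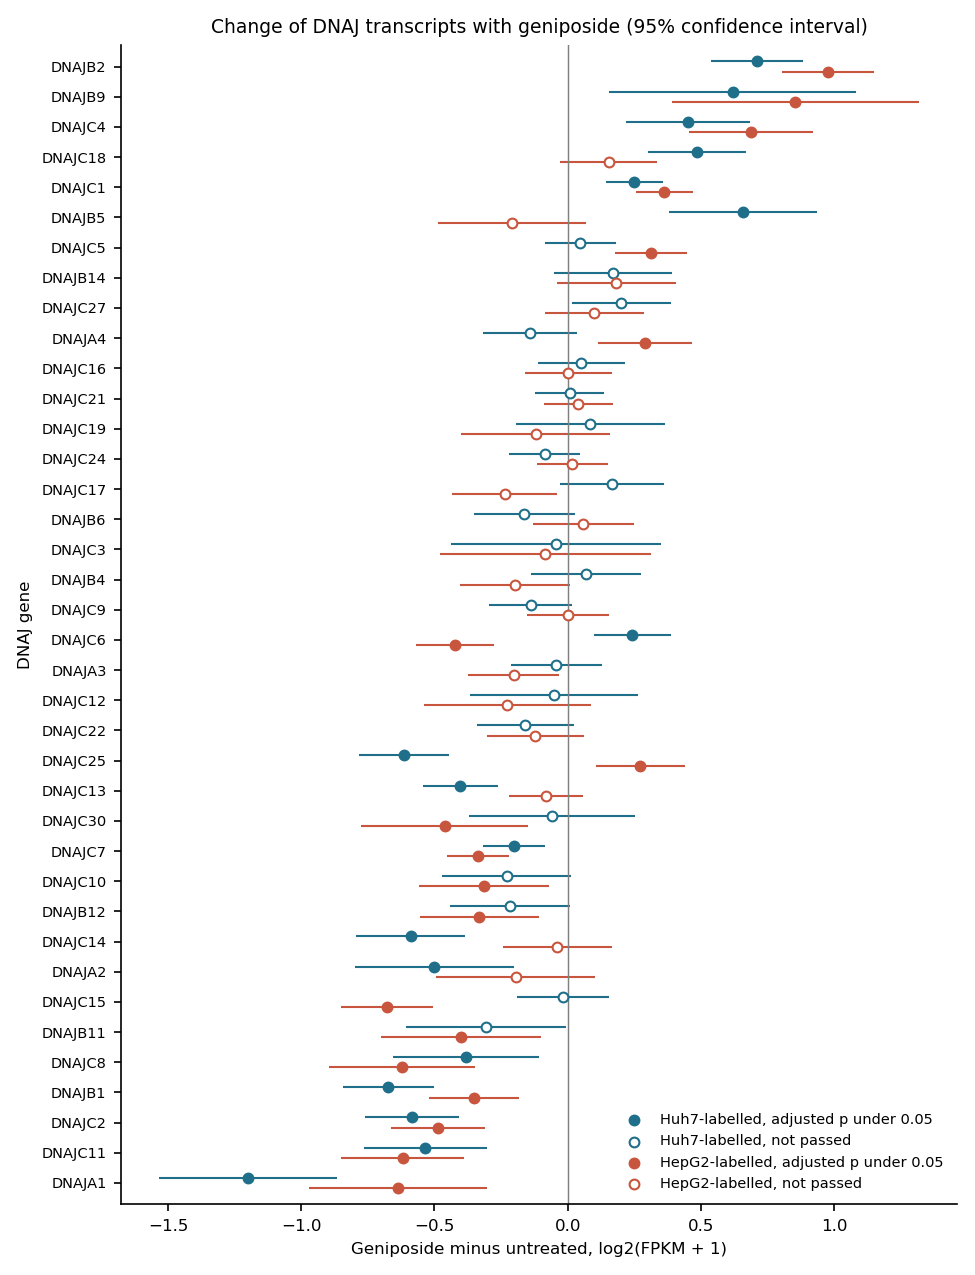
Change of each of the 38 tested DNAJ genes with geniposide in log2(FPKM + 1), with its 95% confidence interval, sorted by the mean of both lines. Blue marks Huh7-labelled and red HepG2-labelled cells, and filled points passed an adjusted p of 0.05. DNAJB2 is at the top with 0.71 and 0.98, and DNAJA1 at the bottom with -1.20 and -0.64.

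The class A members are general co-chaperones of the cytosol, apart from DNAJA3 in mitochondria. DNAJA1 (ENSG00000086061, chr9:33025211-33039907), the most abundant member in both untreated lines, had 106, 109 and 106 FPKM in untreated and 39.9, 38.1 and 63.8 in treated Huh7-labelled libraries. Its treated levels were all below the untreated ones, with the third library highest among them. It fell to 0.442 times its untreated mean, by 1.20 ± 0.15 on the log2 scale (adjusted p = 0.000203), on 1825 to 5012 fragments per library. In RNA pooled from many cells, fewer cells with a transcript and less of it per cell cannot be told apart. In HepG2-labelled libraries DNAJA1 had 84.6, 87.5 and 86.2 FPKM untreated and 55.4, 51.6 and 58.3 treated, again without overlap, and fell by 0.64 ± 0.15 (adjusted p = 0.00595). DNAJA2, the other abundant cytosolic class A gene, fell in Huh7 from 17.4 ± 1.05 to 12.3 ± 3.41 FPKM (SD, n = 3; log2 -0.50 ± 0.14, limma adjusted p = 0.0156). That call was lost without untreated library 2 or treated library 1 or 2 (adjusted p up to 0.0583) and when the Huh7 groups were fitted alone (0.112), and without treated library 3 the difference was -0.70. In HepG2 DNAJA2 stood at -0.20 ± 0.14 (adjusted p = 0.285, or 0.00677 when the Huh7-labelled library that stood apart is left out).

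DNAJA3, which serves the mitochondrial HSP70 HSPA9, had 20.1, 18.8 and 18.6 FPKM in untreated and 17.3, 17.4 and 21.3 in treated Huh7-labelled libraries. Those groups overlapped, and the 95% interval of the difference ran from -0.21 to 0.13. In HepG2 DNAJA3 had 18.6, 19.4 and 17.3 FPKM untreated and 16.2, 15.2 and 16.3 treated (log2 -0.20 ± 0.08, adjusted p = 0.0567). The treated HepG2 libraries were the lower ones without overlap. The difference missed the threshold, but passed under a filter of 5 FPKM (adjusted p = 0.0467), in a fit of HepG2 alone (0.0213) and with that Huh7-labelled library left out (0.00457). DNAJA4 was nearly confined to the HepG2-labelled libraries, with 4.21, 4.97 and 4.63 FPKM untreated and 6.61, 5.59 and 5.39 treated, and rose there by 0.29 ± 0.08 (adjusted p = 0.0131). That call was lost without HepG2 untreated library 1 or treated library 1 (adjusted p up to 0.0589) and with 0.1 FPKM added in place of 1 (0.0567) or a replicate block (0.0558). In Huh7-labelled libraries DNAJA4 had 0.245, 0.189 and 0.192 FPKM untreated and 0.0976, 0.0952 and 0.0979 treated. Those treated values were all lower, on as few as 11 fragments in a library, but the difference of -0.14 did not pass (adjusted p = 0.207). It passed with 0.1 FPKM added in place of 1 (-0.65, adjusted p = 0.00363), under TPM scaling (-0.38, 0.0257) and in a fit of Huh7 alone (0.0194).

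**Figure D2:**
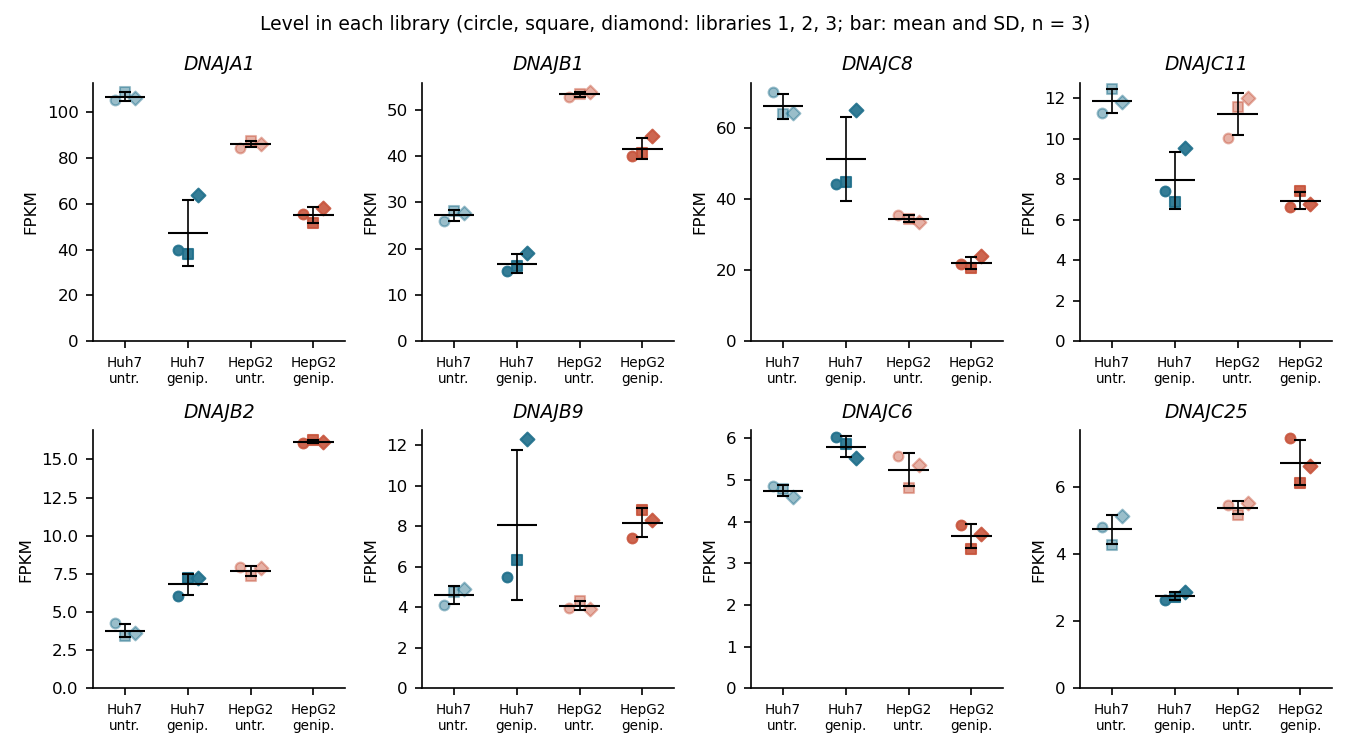
Level of 8 DNAJ genes in each of the 12 libraries in FPKM, with circles, squares and diamonds for libraries 1, 2 and 3 and bars for mean ± SD (n = 3). The axes start at 0. The top row holds members that fell in both lines, among them DNAJB1 with 53.3 FPKM in untreated and 41.6 in treated HepG2-labelled cells. The lower row holds DNAJB2 and DNAJB9, higher with geniposide in both lines, and DNAJC6 and DNAJC25, which moved in opposite directions.

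The class B members of the cytosol and nucleus split in direction. DNAJB1, which works with HSP70 on stress-denatured and aggregated protein, had 25.9, 28.1 and 27.6 FPKM in untreated and 15.0, 16.1 and 19.1 in treated Huh7-labelled libraries. It fell there by 0.67 ± 0.08 (adjusted p = 0.000116). In HepG2 it had 52.8, 53.3 and 53.8 FPKM untreated and 40.0, 40.6 and 44.3 treated, a fall by 0.35 ± 0.08 (adjusted p = 0.00379). No treated library of either line reached an untreated one. DNAJB1 shares 5.75% of its exon bases with TECR on the opposite strand, for which the adjusted p was 0.396 and 0.145. DNAJB2, whose protein binds ubiquitin chains and passes clients to the proteasome, went the other way, from 4.27, 3.43 and 3.63 FPKM to 6.02, 7.20 and 7.23 in Huh7 (0.71 ± 0.08, adjusted p = 9.08e-05). In HepG2 DNAJB2 went from 7.93, 7.34 and 7.86 to 16.1, 16.3 and 16.1 FPKM (0.98 ± 0.08, adjusted p = 5.22e-06). All treated values were above all untreated values, at 1.80 and 2.09 times the untreated mean.

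DNAJB5, a close relative of DNAJB1, rose in Huh7 from 2.31, 1.80 and 1.84 FPKM to 2.93, 3.57 and 4.78 (0.66 ± 0.13, adjusted p = 0.00241). The groups did not overlap, and without treated library 3, the highest, the rise was 0.51. In HepG2 DNAJB5 was low, with 0.810, 0.962 and 0.813 FPKM untreated and 0.604, 0.659 and 0.564 treated. These values were lower in every treated library, but the difference of -0.21 ± 0.13 did not pass (adjusted p = 0.211). DNAJB4, also of this subgroup, had 3.97, 4.77 and 5.04 FPKM untreated and 4.52, 4.52 and 5.57 treated in Huh7, and 10.6, 10.8 and 11.1 untreated and 9.04, 8.70 and 10.3 treated in HepG2. The Huh7 groups overlapped and the HepG2 groups did not, and neither difference passed (0.07 and -0.20, adjusted p = 0.618 and 0.117). DNAJB6, which keeps polyglutamine proteins soluble, stayed between 5.54 and 7.36 FPKM in all 12 libraries, with 95% intervals of -0.35 to 0.03 in Huh7 and -0.13 to 0.25 in HepG2. Without the third treated Huh7-labelled library it was called down in Huh7 (-0.27, adjusted p = 0.00215). DNAJA1 and DNAJB6 hold the strict heat shock element in the windows above. DNAJB1 holds only the shorter pair, as do DNAJA4, DNAJB7 and DNAJC6. Their measured changes differed. In Huh7 the 95% interval was -1.53 to -0.87 for DNAJA1, -0.84 to -0.50 for DNAJB1 and -0.35 to 0.03 for DNAJB6. DNAJA4 was called up in HepG2, DNAJC6 up in Huh7 and down in HepG2, and DNAJB7 was below the filter.

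Of 10 members placed at the endoplasmic reticulum 3 rose and 1 fell in Huh7 (3 and 5 without the third treated library), and 2 rose and 3 fell in HepG2, where 0 fell under TPM scaling. The shares called, 4 of 10 and 5 of 10, stand beside 34.5% and 42.5% of all genes. Without the third treated library 22.6% of all genes rose and 23.5% fell in Huh7, and under TPM scaling 17.4% fell in HepG2. DNAJB9, an inducible co-chaperone of HSPA5 (BiP) that restrains the stress sensor IRE1, had 4.11, 4.77 and 4.92 FPKM untreated and 5.50, 6.33 and 12.3 treated in Huh7 (0.62 ± 0.21, adjusted p = 0.0415). The HepG2 libraries had 3.96, 4.32 and 3.92 FPKM untreated and 7.42, 8.81 and 8.29 treated (0.86 ± 0.21, adjusted p = 0.00716). Every treated value was above every untreated value in both lines, and the third treated Huh7-labelled library was far above its group. Without that library the Huh7 rise was 0.30 (adjusted p = 0.0171). The Huh7 call was lost without any single untreated library of either line or treated HepG2 library (adjusted p up to 0.122), with no filter on low values (0.0914) and in a fit of the Huh7 groups alone (0.184). DNAJB9 shares 6.45% of its exon bases with THAP5 and 3.49% with PNPLA8 on the opposite strand, and both rose in Huh7 (0.48 and 0.75, adjusted p = 0.0263 and 4.95e-05).

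The other 3 unfolded protein response members did not follow DNAJB9. DNAJB11, which binds unfolded protein in the lumen and hands it to HSPA5, had 6.53, 6.52 and 6.21 FPKM untreated and 4.003, 4.45 and 6.90 treated in Huh7, and 9.82, 8.73 and 8.90 untreated and 6.97, 6.57 and 6.51 treated in HepG2. The third treated Huh7-labelled library lay above all untreated ones while the other treated libraries lay below them, and the HepG2 groups did not overlap. DNAJB11 fell in HepG2 (-0.40 ± 0.14, adjusted p = 0.0346), a call lost without any single HepG2 library (adjusted p up to 0.109), and reached -0.31 in Huh7 (adjusted p = 0.106). The HepG2 call was also lost with no filter, under TPM scaling and quantile normalization and with a replicate block (up to 0.0881). DNAJC10, a disulfide reductase for degradation clients, had 5.19, 5.18 and 5.34 FPKM untreated and 3.78, 3.73 and 5.65 treated in Huh7, and 3.97, 4.02 and 4.13 untreated and 3.16, 2.92 and 3.08 treated in HepG2. It showed the same split in Huh7 and fell in HepG2 (-0.31 ± 0.11, adjusted p = 0.0393), a call lost without any single untreated or treated HepG2 library or untreated Huh7 library (adjusted p up to 0.108). With no filter, under TPM scaling and under quantile normalization that call was lost too (up to 0.0872). DNAJC3, an HSPA5 co-chaperone also known as an inhibitor of eIF2α kinases, had 14.2, 14.0 and 13.5 FPKM untreated and 10.995, 10.8 and 20.4 treated in Huh7. In HepG2 it had 13.6, 13.4 and 12.9 untreated and 12.5, 12.4 and 12.6 treated. Neither difference of DNAJC3 passed (-0.04 and -0.08, adjusted p = 0.892 and 0.771), with a 95% interval of -0.44 to 0.35 in Huh7. Without the third treated Huh7-labelled library 1 of the 4 response members rose and 3 fell in Huh7, DNAJC3 with -0.33 (adjusted p = 6.19e-05), and in HepG2 3 fell and 1 rose. In that fit 22.6% of all genes rose and 23.5% fell in Huh7, and 26.5% rose and 27.3% fell in HepG2. HSPA5 itself had 211, 227 and 225 FPKM in untreated and 89.1, 105 and 317 in treated Huh7-labelled libraries. In HepG2 it had 191, 205 and 197 FPKM untreated and 104, 104 and 106 treated, without overlap. That difference of -0.91 missed the threshold (adjusted p = 0.0613), but passed with the third treated Huh7-labelled library left out (8.42e-07).

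Among the membrane-bound members of this compartment, DNAJC1, which docks at ribosomes, rose in both lines, from 12.2 ± 0.440 to 14.7 ± 0.575 FPKM in Huh7 and from 7.60 ± 0.271 to 10.1 ± 0.216 in HepG2 (SD, n = 3; limma adjusted p = 0.00267 and 0.000162). DNAJC18 rose in Huh7 from 3.21 ± 0.182 to 4.90 ± 0.402 FPKM (0.49 ± 0.08, adjusted p = 0.00124 by limma) and had 1.81 and 2.14 FPKM in HepG2 (adjusted p = 0.165). DNAJC14, known for the export of a dopamine receptor, had 5.01, 5.82 and 5.57 FPKM untreated and 3.59, 3.65 and 2.71 treated in Huh7 (-0.59 ± 0.09, adjusted p = 0.000786). The HepG2 libraries had 5.18, 5.83 and 6.06 untreated and 5.46, 5.74 and 5.30 treated (-0.04 ± 0.09, adjusted p = 0.793). The Huh7 groups were separate, with treated library 3 lowest, and the HepG2 groups overlapped. DNAJC14 shares 21.95% of its exon bases with ORMDL2 and 12.91% with TMEM198B on the opposite strand, and TMEM198B rose in both lines (0.36 and 0.43). DNAJB12, a tail-anchored partner of cytosolic HSC70, fell in HepG2 from 9.41 to 7.27 FPKM (-0.33 ± 0.10, adjusted p = 0.0222), which was lost without HepG2 untreated or treated library 1 (up to 0.0812) and under TPM scaling (0.0568). In Huh7 DNAJB12 stood at -0.22 and was called down, at -0.35, with the third treated library left out (adjusted p = 0.00161). Its relative DNAJB14 and DNAJC16 passed in neither line.

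Of 6 tested members of mitochondria 1 rose and 1 fell in Huh7, and 1 rose and 3 fell in HepG2, beside 34.5% and 42.5% of all genes called. DNAJC11, of the complex that shapes the inner membrane's folds, had 11.3, 12.5 and 11.8 FPKM untreated and 7.40, 6.87 and 9.56 treated in Huh7 (-0.53 ± 0.10, adjusted p = 0.00277). In HepG2 it had 10.04, 11.6 and 12.01 untreated and 6.60, 7.40 and 6.79 treated (-0.62 ± 0.10, adjusted p = 0.000743). All treated values lay below all untreated values. It shares 27.92% of its exon bases with THAP3 on the opposite strand, which rose in both lines (0.50 and 0.48). DNAJC4 rose in both, from 5.63, 7.24 and 5.76 to 8.15, 10.2 and 8.20 FPKM in Huh7 (0.45 ± 0.11, adjusted p = 0.00722, and 0.0611 with the Huh7 groups alone) and from 3.999, 4.60 and 4.50 to 7.50, 7.17 and 8.31 in HepG2 (0.69 ± 0.11, adjusted p = 0.000388). The groups did not overlap in either line. It shares 10.58% of its exon bases with NUDT22 on the same strand, whose adjusted p was 0.899 and 0.647.

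DNAJC15, an inner membrane protein linked to import and respiratory complex I, was at 3.09, 3.58 and 3.53 FPKM in untreated and 1.85, 1.54 and 1.87 in treated HepG2-labelled libraries. It fell there by 0.68 ± 0.08 (adjusted p = 6.37e-05), with no overlap. In Huh7-labelled libraries it stayed between 0.00666 and 0.0359 FPKM, on as few as 1 fragment, and no change could be read. DNAJC30, linked to the repair of complex I, fell in HepG2 from 4.12 to 2.76 FPKM (-0.46 ± 0.14, adjusted p = 0.0223). That call was lost without HepG2 untreated library 2 or 3 or treated library 1 (adjusted p up to 0.0730). With no filter on low values (0.0553) and in a fit of HepG2 alone (0.0620) it was lost too. DNAJC30 shares 14.45% of its exon bases with BUD23 on the opposite strand, which fell in both lines (-0.54 and -0.60). DNAJC19, part of the import motor, passed in neither line, with 95% intervals of -0.20 to 0.36 in Huh7 and -0.40 to 0.16 in HepG2.

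Each of the 4 tested members of vesicles and endosomes behaved in its own way. DNAJC5, the cysteine string protein of secretory vesicles, rose in HepG2 from 31.8, 32.5 and 31.7 to 38.7, 40.1 and 41.0 FPKM (0.31 ± 0.06, adjusted p = 0.00188). In Huh7 it had 25.1, 24.5 and 24.2 untreated and 23.4, 25.1 and 28.2 treated, with overlap (0.05 ± 0.06, adjusted p = 0.594). DNAJC6, auxilin, which strips clathrin from vesicles, had 4.86, 4.78 and 4.58 FPKM untreated and 6.02, 5.86 and 5.52 treated in Huh7. It rose there by 0.24 ± 0.07 (adjusted p = 0.0154, and 0.0582 without untreated library 3). The HepG2 libraries had 5.58, 4.80 and 5.35 untreated and 3.92, 3.35 and 3.69 treated and fell by 0.42 ± 0.07 (adjusted p = 0.000436). The groups were separate in both lines, in opposite order. DNAJC13, an endosomal protein of receptor recycling, fell in Huh7 from 8.76 ± 0.237 to 6.39 ± 0.529 FPKM (SD, n = 3; limma adjusted p = 0.000769) and stood at 9.55 and 8.98 in HepG2 (adjusted p = 0.346). DNAJC27, a Rab-like GTPase with a J domain, missed the threshold in both (0.20 and 0.10, adjusted p = 0.0907 and 0.386), but was called up in Huh7 once the third treated library was left out (0.29, adjusted p = 0.00466).

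Of the 6 members that act on RNA, ribosomes or chromatin 2 fell in each line, DNAJC2 and DNAJC8, and 0 rose. Of all genes 18.1% fell and 16.4% rose in Huh7, and 21.5% fell and 21.0% rose in HepG2. DNAJC2, which sits on ribosomes with HSPA14 and also binds chromatin, had 6.48, 6.38 and 6.94 FPKM untreated and 4.38, 4.35 and 3.51 treated in Huh7 (-0.59 ± 0.08, adjusted p = 0.000326). In HepG2 it had 5.41, 6.15 and 6.23 untreated and 4.15, 3.95 and 3.74 treated (-0.49 ± 0.08, adjusted p = 0.000613). No treated value reached an untreated one. HSPA14 fell in both lines as well (-0.27 and -0.51, adjusted p = 0.0181 and 0.000367). DNAJC8, a spliceosome-associated protein, had 70.2, 64.0 and 64.3 FPKM untreated and 44.2, 44.9 and 64.9 treated in Huh7, where the third treated library lay within the untreated range. The HepG2 libraries had 35.4, 34.3 and 33.5 untreated and 21.6, 20.7 and 23.8 treated, without overlap (-0.62 ± 0.12, adjusted p = 0.00213). Its fall in Huh7 (-0.38 ± 0.12, adjusted p = 0.0357) was -0.56 without the third treated library (adjusted p = 6.35e-05). The Huh7 call was lost without any other single Huh7 library, HepG2 untreated library 2 or treated library 1 (adjusted p up to 0.119). It was also lost with no filter, under TPM scaling, quantile normalization and voom, with a replicate block and in a fit of Huh7 alone (up to 0.155). DNAJC21, a factor of late large-subunit ribosome assembly, had 5.41, 6.08 and 5.80 untreated and 6.06, 6.06 and 5.30 FPKM treated in Huh7, and 16.02, 16.3 and 16.5 untreated and 16.4, 16.5 and 17.3 treated in HepG2. Both pairs of groups overlapped, with 95% intervals of -0.12 to 0.14 and -0.09 to 0.17. The histone chaperone DNAJC9, the splicing-linked DNAJC17 and the diphthamide factor DNAJC24 passed in neither line. Once the third treated Huh7-labelled library was left out, DNAJC9 was called down in Huh7 (-0.21, adjusted p = 0.0151) and DNAJC17 down in HepG2 (-0.24, adjusted p = 0.0246). DNAJC9 shares 23.99% of its exon bases with FAM149B1 and DNAJC17 20.43% with GCHFR, each on the opposite strand.

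DNAJC7, which bridges HSP70 and HSP90, fell in both lines, from 6.63 ± 0.338 to 5.64 ± 0.358 FPKM in Huh7 and from 8.19 ± 0.137 to 6.28 ± 0.0503 in HepG2 (SD, n = 3; limma adjusted p = 0.0136 and 0.000489). The Huh7 call was lost without untreated library 3 (adjusted p = 0.0617). It was also lost under TPM scaling, in a fit of Huh7 alone, with a replicate block and on recovered fragments (up to 0.0980). DNAJC25, a multi-pass membrane protein, had 4.82, 4.27 and 5.14 FPKM untreated and 2.63, 2.74 and 2.87 treated in Huh7 (-0.61 ± 0.08, adjusted p = 0.000175). In HepG2 it had 5.46, 5.17 and 5.53 untreated and 7.46, 6.12 and 6.62 treated (0.27 ± 0.08, adjusted p = 0.0139, and up to 0.0594 without untreated library 2 or treated library 1). The groups were separate in both lines, lower with geniposide in Huh7 and higher in HepG2. DNAJC25 shares 13.84% of its exon bases with the read-through gene DNAJC25-GNG10, which held 4 fragments over the 12 libraries. DNAJC12, a co-chaperone of aromatic amino acid hydroxylases, and DNAJC22 passed in neither line.

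The difference between the effects in the 2 lines was tested as an interaction term. It passed in 10 of 38 members, 6 higher and 4 lower in HepG2 than in Huh7, 26.3% beside 27.8% of all genes tested (14.1% higher, 13.7% lower). Leaving out the Huh7-labelled library that stood apart gave 12 higher and 5 lower, beside 19.6% and 20.2% of all genes. The term was 0.89 ± 0.11 for DNAJC25 (adjusted p = 0.000277), -0.67 ± 0.09 for DNAJC6 (adjusted p = 0.000640), -0.87 ± 0.18 for DNAJB5 (adjusted p = 0.00513) and 0.55 ± 0.13 for DNAJC14 (adjusted p = 0.0111). These 4 members passed under each alternative that tested them and without each library, but DNAJB5 never reached the 5 FPKM filter and was not tested there. DNAJB5 also averaged under 1 FPKM in both HepG2 groups and passed the main filter only through Huh7, which limits its difference on the log2(FPKM + 1) scale. DNAJC15 followed with -0.66 ± 0.11 (adjusted p = 0.00180), but a test on recovered fragments gave -0.11 with an adjusted p of 0.921. Its level with geniposide was 0.515 times untreated in HepG2. The Huh7 ratio of 0.550 came from levels near 0, where no change could be read. On the log2(FPKM + 1) scale a gene near 0 in 1 line has little room to differ there. For DNAJA1 the term was 0.56 ± 0.21 (adjusted p = 0.0732), and 0.79 without the third treated library (adjusted p = 1.88e-05). For DNAJB2 it was 0.27 ± 0.11 (adjusted p = 0.0961), and 0.31 on leaving it out (adjusted p = 0.0488). DNAJA2, DNAJB6, DNAJB9, DNAJC3 and DNAJC18 also passed in that fit.

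In untreated libraries DNAJA1 was the highest member in both lines, at 107 ± 1.87 FPKM in Huh7 and 86.1 ± 1.43 in HepG2 (SD, n = 3). The next were DNAJC8 (66.1 and 34.4), DNAJB1 (27.2 and 53.3), DNAJC5 (24.6 and 31.97), DNAJA3 (19.2 and 18.5) and DNAJA2 (17.4 and 19.2). DNAJC8 and DNAJB1 thus stood in reversed order in the 2 lines, whereas DNAJA2 and DNAJA3 lay within each other's spread in HepG2. Levels differed between the lines in 21 of 38 members, 11 higher and 10 lower in HepG2, 55.3% beside 71.8% of all genes (36.1% higher, 35.8% lower). With the treated library that stood apart left out, 14 were higher and 11 lower, beside 12105 of 15518 genes called. That library enters this comparison only through the shared spread. DNAJA1 (-0.31, adjusted p = 6.70e-05, main fit 0.0875), DNAJA2 (0.14, 0.0265), DNAJC13 (0.11, 0.0422) and DNAJC19 (0.17, 0.0179) were then called. They also passed with the untreated groups fitted alone. DNAJA1 kept its sign under TPM scaling (-0.59, adjusted p = 0.00486), and the others turned negative. Under TPM scaling, which moved the median of all genes by -0.27, the split was 6 higher and 17 lower, beside 27.3% and 47.3% of all genes. DNAJA4 and DNAJC15 passed the filter only through HepG2-labelled libraries and DNAJB5 only through Huh7-labelled ones, so a line difference was built into their inclusion. DNAJC15 was 0.0293 against 3.40 FPKM and DNAJA4 0.209 against 4.60. DNAJC21 (1.35 ± 0.06, adjusted p = 3.00e-09), DNAJB4 (1.09 ± 0.09, adjusted p = 1.11e-06), DNAJB1 (0.95 ± 0.08, adjusted p = 6.88e-07) and DNAJB2 (0.87 ± 0.08, adjusted p = 1.57e-06) were higher in HepG2. DNAJC8 was lower there (-0.92 ± 0.12, adjusted p = 4.48e-05), followed by DNAJB5, DNAJC1 and DNAJC18 (-0.68, -0.62 and -0.58). Of the 21 line differences 12 passed under each alternative that tested them, and 4 of these (DNAJB5, DNAJC15, DNAJC18 and DNAJC24) were not tested under the 5 FPKM filter.

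**Figure D3:**
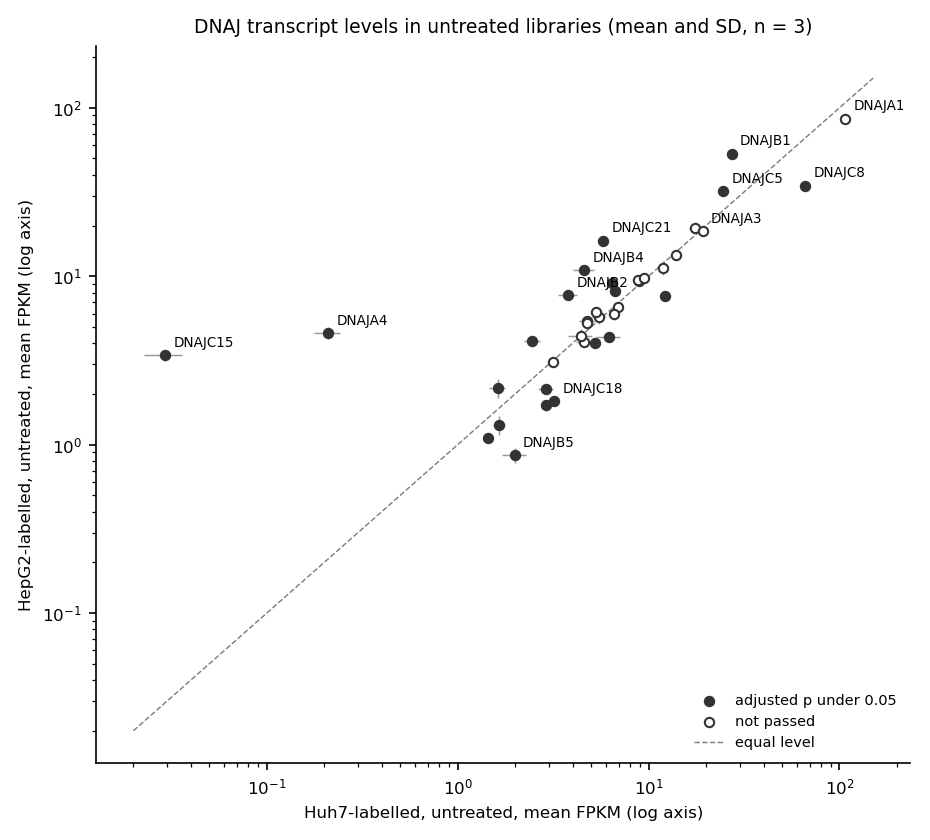
Mean level of each of the 38 tested DNAJ genes in untreated Huh7-labelled (x axis) against untreated HepG2-labelled libraries (y axis), both in FPKM on log axes, with SD bars over 3 libraries. Filled points passed an adjusted p of 0.05 and the dashed line marks equal levels. DNAJC15 (0.0293 and 3.40 FPKM) and DNAJA4 (0.209 and 4.60) lie far to the left of the line, and DNAJC8 (66.1 and 34.4) lies below it.

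Because FPKM is per length, the family can be summed. The sum was 430.4 ± 3.55 FPKM in untreated Huh7-labelled libraries (SD, n = 3) and 305, 311 and 402 in treated libraries 1, 2 and 3. All 3 treated sums lay below the untreated ones, the third by little. As a share of all FPKM in its library the third treated sum, at 0.1694%, lay within the untreated range of 0.1691% to 0.1740%, while libraries 1 and 2 were at 0.130% and 0.129%. In HepG2-labelled libraries the sum went from 435 ± 3.17 to 382 ± 9.82 FPKM. Its share of all FPKM there went from 0.143 ± 0.0018% to 0.132 ± 0.0008%, beside 0.171 ± 0.0025% in untreated Huh7-labelled libraries. The untreated lines were thus near each other in summed FPKM but not in share. DNAJA1 made up 24.8 ± 0.431% of the sum in untreated and 13.7 ± 1.89% in treated Huh7-labelled libraries, and 19.8 ± 0.195% and 14.4 ± 0.587% in HepG2. Without DNAJA1 and DNAJC8 the Huh7 sum was 256 to 259 FPKM untreated and 221, 228 and 273 treated, so that the third treated library was then above the untreated ones.

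The third treated Huh7-labelled library was above both other treated libraries in 26 of the 38 members and below both in 9, while over all tested genes these shares were 40.1% and 44.5%. The median member stood at -0.14 and -0.14 against the untreated mean in treated libraries 1 and 2 and at 0.07 in library 3. In 6 of the 10 members that fell in Huh7 the third library was the one nearest to untreated. It was the lowest treated library for DNAJC2, DNAJC13 and DNAJC14, so the shift did not run in 1 direction. What sets this library apart was not tested.

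**Figure D4:**
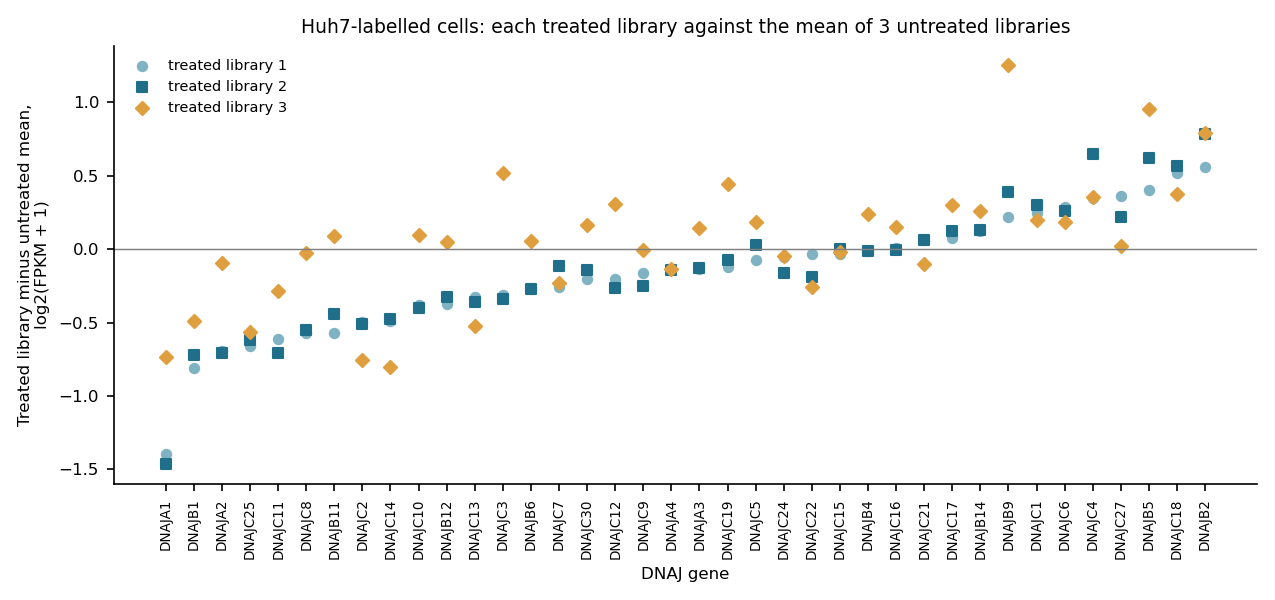
Each treated Huh7-labelled library minus the mean of the 3 untreated libraries in log2(FPKM + 1), for the 38 tested DNAJ genes sorted by treated library 1. Circles, squares and diamonds are libraries 1, 2 and 3. The diamonds leave the other marks most at DNAJB9 and DNAJC3, at 12.3 and 20.4 FPKM, and lie at 0.07 for the median member against -0.14 in libraries 1 and 2.

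The partners of the family were taken from lists of chaperone genes, whose counts stand beside 16.4% of all genes up and 18.1% down in Huh7 and 21.0% and 21.5% in HepG2 (22.6% and 23.5%, 26.5% and 27.3% when the third treated Huh7-labelled library is left out). Of 10 tested HSP70 genes 1 rose and 5 fell in Huh7, and 1 rose and 5 fell in HepG2 (2 up and 7 down in each without that library), with medians of -0.45 and -0.47. The constitutive HSPA8, the main cytosolic partner of DNAJA1, went from 256 ± 20.001 to 79.0 ± 4.93 FPKM in Huh7 and from 262 ± 3.54 to 164 ± 5.29 in HepG2 (SD, n = 3; limma adjusted p = 3.04e-07 and 2.01e-05). The inducible copies HSPA1A and HSPA1B also fell in both lines (-2.97 and -0.43, -3.03 and -0.59), although near-identical copies may share fragments. HSPA1L rose in both (0.41 and 0.55), at most 1.91 FPKM as a group mean. Of 14 exchange factors 2 rose and 6 fell in Huh7, and 0 rose and 7 fell in HepG2 (10 and 9 fell without the third treated Huh7-labelled library). HSPH1, HSPBP1 and BAG2 fell in both lines, HSPH1 by 1.31 and 0.73 on the log2 scale (adjusted p = 3.35e-06 and 5.40e-05). SIL1, the exchange factor of HSPA5, rose in Huh7 (0.60, adjusted p = 0.00247). The last list held the adaptors ST13, STIP1 and STUB1, the HSP90 genes HSP90AA1 and HSP90AB1, and HSF1. STIP1, which links HSP70 to HSP90, fell in both lines (-0.53 and -0.84, adjusted p = 0.00232 and 8.01e-05), as did both HSP90 genes, and ST13 fell in Huh7. STUB1 and HSF1 passed in neither line (HSF1 0.05 and 0.11, adjusted p = 0.700 and 0.367), and HSF1 was called up in Huh7 when the third treated library was left out (0.17, adjusted p = 0.0206). Among J-domain proteins with other names, SEC63 rose in Huh7 (0.27, adjusted p = 0.0427), and GAK, the ubiquitous relative of auxilin, fell in HepG2 (-0.26, adjusted p = 0.00208). HSCB passed in neither. With that Huh7-labelled library left out, SEC63 and HSCB were called up in HepG2 (0.09 and 0.36, adjusted p = 0.0466 and 0.0368).

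The filter left out 6 members: DNAJB7, DNAJB8, DNAJB13, DNAJC5B, DNAJC5G and DNAJC28. DNAJB8 never exceeded 1 fragment in a library, and DNAJC5B reached at most 6, DNAJB13 12, DNAJB7 14, DNAJC5G 16 and DNAJC28 49. DNAJC28, a mitochondrial candidate, was the highest of them, at 0.556 ± 0.115 FPKM in untreated Huh7 and 0.199 ± 0.0383 in untreated HepG2 (SD, n = 3). DNAJC5G had 0 fragments in all 6 HepG2-labelled libraries. A count of 0 allows up to 3 fragments, which is 0.161 to 0.212 FPKM in a gene of 1 kb and covers counting error only. In a fit without the filter none of the 6 passed in a treatment comparison (limma, smallest adjusted p 0.0862, for DNAJB7 in HepG2). DNAJB7 shares 24.24% of its exon bases with XPNPEP3 on the opposite strand. The libraries do not mark strand, so reads of overlapping genes cannot be told apart, and 9 members share over 10% of their exon bases with another gene.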

How the data were processed

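Poly(A) RNA was sequenced in 12 samples, 3 in each of 4 groups. The authors deposited FPKM per gene, and per the submitters' processing notes used CASAVA, fastp and the hg38 build. Aligner, counting program and versions were not given in the sources used here. Per the labels' protocols RNA was captured with poly-T beads and no step marks strand. All 12 value columns were matched to samples by name, with 0 left over. FPKM times gene length came out as whole fragments in 100% of values (tolerance 0.05), and the depth was taken from these. Every within-group pair of libraries differed by more than sampling noise (chi-square per degree of freedom at least 2.19), and none was merged as a duplicate.

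limma 3.58.1 (R 4.3.3) was fitted on log2(FPKM + 1) with 4 group means, 8 residual degrees of freedom, an intensity trend and two-sided tests, for genes at 1 FPKM or more in at least 3 samples. This scale understates the change of low genes. Members under the filter came from a fit without it. Alternatives were a pseudocount of 0.1, other filters, TPM, quantile normalization, voom on the fragments, smaller fits, a replicate block and leaving out each library. The fit was tested on simulated data.

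Values per library are printed for the members with the 8 largest called changes in each line, the 5 largest differences between effects, the 5 highest levels, the 5 largest line differences and the unfolded protein response members, and for other genes by their lists. The members, lists and tests were chosen with earlier results of these data known. Exon overlaps come from GENCODE 29 and promoter sequences from RefSeq (GRCh38.p14). The planned protein stretches were not used here. A gene of the partner lists is not reported here.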

Additional observations from a re-analysis of the deposited data

Results flagged for a closer look

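The effect of geniposide differed between the lines in 10 members by the interaction term of the limma fit, given here as HepG2 minus Huh7 in log2(FPKM + 1). It was 0.89 for DNAJC25, 0.55 for DNAJC14, 0.43 for DNAJA4, 0.32 for DNAJC13, 0.32 for DNAJB1 and 0.26 for DNAJC5. It was -0.87 for DNAJB5, -0.67 for DNAJC6, -0.66 for DNAJC15 and -0.40 for DNAJC17. Among these, DNAJC25 and DNAJC6 had a called change in each line with opposite sign, and DNAJB1 fell in both, less in HepG2. DNAJC17 passed in neither line alone, with 0.17 in Huh7 and -0.24 in HepG2 (adjusted p = 0.176 and 0.0527). With a replicate block the calls for DNAJA4, DNAJB1, DNAJC5 and DNAJC17 were lost (adjusted p = 0.0704, 0.0587, 0.105 and 0.104). DNAJC15 and DNAJA4 are near 0 in Huh7 and passed the filter through HepG2 alone, which limits their difference on this scale. DNAJB5 averaged under 1 FPKM in both HepG2 groups and passed the filter through Huh7 alone, with the same limit. For DNAJC15 voom on recovered fragments gave -0.11 (adjusted p = 0.921). Its treated level was 0.515 times untreated in HepG2, and the Huh7 ratio of 0.550 came from levels too low to read a change. The calls for DNAJB1 and DNAJC5 were lost without any single library other than the third treated Huh7-labelled one (adjusted p up to 0.107 and 0.0925), and with that library left out they stood at 0.00127 and 0.000816. The calls for DNAJC13 and DNAJC17 were each lost without any of 5 single libraries (up to 0.0557 and 0.0829).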

How the results depend on the processing

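Of the called members, 11 of 17 in Huh7, 13 of 19 in HepG2, 4 of 10 differences between effects and 12 of 21 line differences passed under each alternative that tested them. Of these, 2, 1, 1 and 4 were not tested under the 5 FPKM filter. Leaving out a library gave 8 to 16 falls in Huh7 (16 without the third treated library), 3 to 12 members with a higher effect in HepG2 (main 6) and 6 to 11 members lower in untreated HepG2 (6 without Huh7 untreated library 1). Over all 15518 genes, calls in either direction then ranged from 4113 to 7154 in Huh7. The ranges were 3329 to 6170 for differences between effects and 10453 to 12105 for line differences. The replicate numbers did not pair the samples (same-number correlations -0.061 to 0.020). With the replicate block 3 members instead of 6 had a higher effect in HepG2, and 7 rose and 8 fell in Huh7 and 6 rose and 11 fell in HepG2. Calls over all genes also dropped with the block. They numbered 4520 in Huh7, 5952 in HepG2 and 3160 for differences between effects, beside 5357, 6602 and 4317 in the main fit. A filter of 5 FPKM left 1 member with a lower effect in HepG2 and 4 members lower in untreated HepG2, since fewer members are tested. Of the 9282 genes it left, 3409 had a called difference between effects and 7220 a called line difference. Members higher and lower in untreated HepG2 numbered 6 and 17 under TPM and 7 and 18 with voom. Of all genes 27.3% were higher and 47.3% lower under TPM. With voom 11558 of 15518 genes were called, 36.4% of these higher.

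Some differences that had not passed turned sign, and the cause was not tested. These settings also moved all tested genes. The median shift of the line difference was -0.27 under TPM, -0.04 under quantile normalization and -0.29 with voom. That of the Huh7 effect was 0.08, -0.01 and 0.08. Under TPM, quantile normalization and voom in that order, the Huh7 effect on DNAJC3 was 0.028, 0.0095 and 0.032, and the line difference was -0.13, -0.0973 and -0.14 for DNAJA2, -0.23, -0.12 and -0.24 for DNAJC9 and -0.15, -0.039 and -0.16 for DNAJC13. Under TPM and voom the line difference was -0.072 and -0.082 for DNAJC19, -0.0879 and -0.10 for DNAJC25 and -0.13 and -0.15 for DNAJC6. Leave-one-out ranges crossed 0 for the Huh7 effects on DNAJC5 (-0.022 to 0.11) and DNAJC3 (-0.33 to 0.10), the difference between effects for DNAJC3 (-0.19 to 0.24) and the line difference of DNAJC16 (-0.067 to 0.0067). Depth limits DNAJC15 and DNAJA4 in Huh7-labelled libraries and the members below the filter.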

Other observations

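DNAJ-named transcripts outside the protein-coding rule were mostly silent or near the counting floor. Of the 26, 12 had 0 fragments in all libraries, among them the pseudogenes DNAJB1P1 and DNAJA1P1 to DNAJA1P5 and the pseudogene DNAJB3. DNAJC8P1, a processed copy of DNAJC8, had 2.97 ± 0.588 FPKM in untreated and 1.07 ± 0.573 in treated Huh7-labelled libraries (SD, n = 3; log2 -0.96 ± 0.25, limma adjusted p = 0.0125), on 102 fragments over all 12 libraries. In HepG2 it stayed at 0.720 and 0.721 FPKM. DNAJC3-DT, which starts beside DNAJC3, had 1.013 and 1.24 FPKM in Huh7 and 1.16 and 1.51 in HepG2, and its differences of 0.15 and 0.21 did not pass (adjusted p = 0.406 and 0.195). The antisense gene of DNAJC27 had 0.0972 ± 0.0412 FPKM in untreated and 0.245 ± 0.0178 in treated Huh7-labelled libraries, below the filter and on 159 fragments in all.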
